A study of Rattus norvegicus with 2 samples.

Results

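Transcripts of GABAergic interneurons were examined in cultured rat cortical neurons through 5 genes, Gad1 (ENSRNOG00000000007), Gad2 (ENSRNOG00000018200), Slc32a1 (ENSRNOG00000015393), Sst (ENSRNOG00000001837) and Npy (ENSRNOG00000046449). The genes were taken by these Ensembl identifiers for their known roles, with earlier results of these data known, and all 5 were listed among the 16756 genes of both deposited tables. The neurons came from the cortex of Sprague Dawley fetuses at embryonic day 18 (E18) and carried either the NC siRNA, a universal control duplex, or the CDH12 siRNA, directed against cadherin-12, for 36 h. Both duplexes were delivered by electroporation, and 1 RNA-seq library of each treatment was analyzed, so neither treatment has a replicate. The number of fetuses and of cultures behind each library was not given in the sources used here. Gad1, Gad2 and Slc32a1 each differed by at most 1.08-fold between the libraries, Sst was 1.44-fold higher with the NC siRNA, and the identifier given for Npy had 2 reads in each library. The symbols are those supplied with the identifiers. No symbol stands in the deposited tables, and 0 identifiers could be matched to one through the RefSeq gene table, so the pairing was not checked, and neither CDH12 itself nor the marker genes of other cell types could be looked up.

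Inhibitory neurons of the cortex use GABA as their transmitter and arise mostly in the ganglionic eminences of the ventral forebrain, from which they migrate into the cortex before birth. Gad1 and Gad2 encode the glutamate decarboxylases that make GABA, and Slc32a1 encodes the vesicular transporter that loads GABA into synaptic vesicles. Sst and Npy encode the precursors of the neuropeptides somatostatin and neuropeptide Y, which are made by subsets of interneurons. The Sst promoter is a well-known example of a promoter with a cAMP response element (CRE), the DNA motif bound by the transcription factor CREB, and the study behind these data asked about the cAMP/PKA pathway.

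The bases around the annotated starts of the 5 genes are shown because the Sst window, that of the member that differed most between the libraries, holds a CRE. RefSeq promoter windows of the GRCr8 build were matched by symbol for all 5 genes, and 80 bases before and 20 bases after the start are printed 5′ to 3′, with a CRE in capitals. Coordinates are those of GRCr8, since the build behind the deposited tables was not given in the sources used here. The start used for Gad1 lies 192 bases inside the outermost annotated start of the gene, and that of the other genes is the annotated start itself.
Gad1, chr3:75777372-75777471, plus strand: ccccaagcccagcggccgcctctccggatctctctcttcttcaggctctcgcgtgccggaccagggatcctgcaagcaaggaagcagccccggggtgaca
Gad2, chr17:89671638-89671737, plus strand: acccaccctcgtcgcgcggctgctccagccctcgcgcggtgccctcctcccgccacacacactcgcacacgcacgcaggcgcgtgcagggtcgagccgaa
Slc32a1, chr3:167687165-167687264, plus strand: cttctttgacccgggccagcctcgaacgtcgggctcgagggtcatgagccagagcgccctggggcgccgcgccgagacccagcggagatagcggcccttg
Sst, chr11:90461466-90461565, plus strand: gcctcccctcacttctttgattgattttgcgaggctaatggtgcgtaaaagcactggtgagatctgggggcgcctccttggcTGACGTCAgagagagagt
Npy, chr4:80212031-80212130, plus strand: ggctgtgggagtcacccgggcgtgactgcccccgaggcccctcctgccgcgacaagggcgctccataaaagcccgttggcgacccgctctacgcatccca

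The full CRE, TGACGTCA, which reads the same on both strands, was found in the 300-base window of Sst alone among the 5 genes, at bases 3 to 10 after the annotated start. The annotated starts, on which positions and base composition rest, were not checked against mapped transcription starts. The CRE is thus not shown to lie in the transcribed part of Sst. The full CRE was present in 612 of the 33469 promoter windows of the same length (1.83%). The half-site TGACG, searched on both strands, lies in each arm of the full CRE of Sst. It also occurred at bases 27 to 31 of the Slc32a1 window after the start and from base -180 to base -176 before it, and 21.2% of all windows held it. The TATA box letters TATAAA, searched on both strands, were found from base -213 to base -208 of Gad1 and in 14.2% of all windows. The motifs were chosen after the sequences and values had been seen, and a match of letters is a description of the window only. Whether the CRE bears on the difference of Sst between the libraries was not tested. Base composition also set Sst apart. The Sst window had a GC content of 45.7% and 11 CpG dinucleotides, whereas GC content reached 67.7% in Gad1, 63.7% in Gad2, 73.7% in Slc32a1 and 67.7% in Npy. These 4 windows held between 23 and 42 CpG dinucleotides, and the median window had a GC content of 51.7% and 7 CpG dinucleotides.

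The deposited value of a gene is its read count divided by 1 size factor per library, called here the normalized count. Division by the value of 1 read (0.944 normalized counts with the NC siRNA, 1.06 with the CDH12 siRNA) returned whole reads for 100% of the values. The libraries summed to 15500488 reads (NC siRNA) and 13699612 reads (CDH12 siRNA). Intervals are exact 95% Clopper-Pearson intervals of these reads. They cover counting error only, because reads without molecular identifiers are not independent molecules and no second culture was analyzed. In a bulk library, fewer interneurons and less RNA per interneuron cannot be told apart. Reads also scale with transcript length, for which no table was at hand, so levels of different genes were not ranked.

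The transcripts for GABA synthesis and loading were well covered in both libraries. For Gad1, 1795 reads were counted with the NC siRNA against 1599 with the CDH12 siRNA, giving normalized counts of 1695 and 1694. Gad2 had 1835 and 1756 reads, respectively, or normalized counts of 1732 and 1860. Slc32a1, the vesicular transporter, had 858 and 710 reads, or normalized counts of 810.04 and 752. The reads of each of these 3 genes were fewer with the CDH12 siRNA, the shallower library, and after normalization Gad2 was higher in that library and Slc32a1 lower. The sign of Gad1 turned with the scaling, with a log2 ratio of -0.0008 by the deposited size factors, 0.0001 by TMM and 0.01 by total reads.

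The 2 neuropeptide transcripts were less covered. For Sst, 218 reads were counted with the NC siRNA against 135 with the CDH12 siRNA, giving normalized counts of 206 (179 to 235) and 143 (120 to 169). Npy had 2 reads in each library. This is under the 3 reads taken as the smallest count to be read as detection. Of all genes, 11.0% (NC siRNA) and 11.3% (CDH12 siRNA) had fewer than 3 reads. No fold change is given for Npy. The 2 reads allow at most 0.466 RPM (reads per 1000000 reads) with the NC siRNA and 0.527 RPM with the CDH12 siRNA. These values are those of the identifier ENSRNOG00000046449. Whether it is the gene model to which Npy reads were assigned in the authors' annotation was not checked, so a low count of this identifier is not shown to be a low level of Npy transcript. Sst was measured at 14.1 RPM (12.3 to 16.1) in the NC siRNA library and at 9.85 RPM (8.26 to 11.7) in the other.

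**Figure D1:**
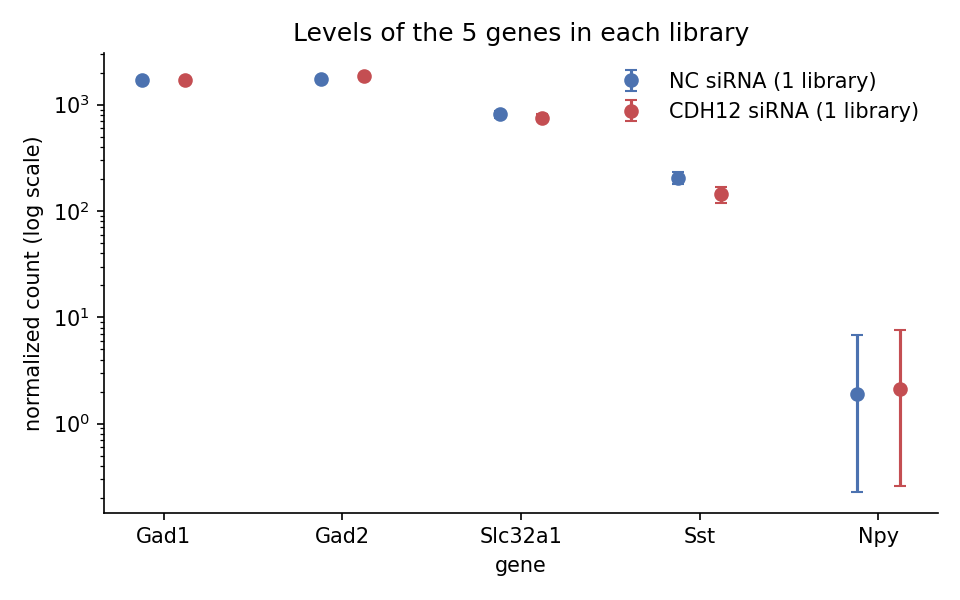
Normalized counts (log scale) of the 5 genes in the NC siRNA library (blue) and the CDH12 siRNA library (red), with 95% counting intervals, 1 library each. The points of Gad1, Gad2 and Slc32a1 lie close together in the 2 libraries, Sst is lower with the CDH12 siRNA (143 against 206), and Npy rests on 2 reads in each. Heights of different genes also depend on transcript length.

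The difference between the libraries was then given for each member as the ratio of normalized counts, CDH12 siRNA over NC siRNA. The ratio of Gad1 was 0.999 (95% counting interval 0.934 to 1.07), an interval centred on an equal level. Gad2 had a ratio of 1.07, or a log2 ratio of 0.10 (0.01 to 0.20), with a lower bound just above an equal level. The ratio of Slc32a1 was 0.928 (0.839 to 1.03), an interval that includes an equal level. Sst had the lowest ratio, 0.695 (0.556 to 0.865), which is a log2 ratio of -0.53 (-0.85 to -0.21) or a level 1.44-fold higher with the NC siRNA (1.16 to 1.80). The 5 genes summed to 4708 and 4202 reads, with a ratio of 1.00 (0.960 to 1.04). The sum is carried by Gad1 and Gad2 and gives no view of Sst, which held 4.63% of its reads with the NC siRNA against 3.21% with the CDH12 siRNA.

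Of the 4 members with a summed read number of at least 20, 0 exceeded a 2-fold difference, a size reached by 2.27% of the 13317 genes that met this minimum. Genes with few reads carried most of that share. These 4 members had between 353 and 3591 reads, and of the 11263 genes with at least 100 reads 0.293% differed by more than 2-fold. The interval lay below an equal level for 1 of the 4 members, Sst, and for 12.4% of the 13317 genes. For 1 of the 4, Gad2, it lay above an equal level, as it did for 10.2% of the 13317 genes. These shares were not computed for genes with as many reads as the members. Genes outside their counting interval were therefore common, and no difference of a single member has a replicate check. The median log2 ratio of the 4 members was -0.05, beside -0.003 over the 13317 genes. An exact test of edgeR on the whole reads, which compares these 2 libraries and not the treatments, called 206 genes at the study's thresholds (*P* below 0.05, fold change above 2), which no member without a 2-fold difference can pass. With Benjamini-Hochberg adjustment and no fold threshold it called 39 of 16756 genes (0.233%) and 0 of the 5 members. The dispersion of this test came from the same 2 libraries, so the absence of members among its calls does not show that they were alike. Its calls at the study's thresholds are not the number of genes that the study reported.

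**Figure D2:**
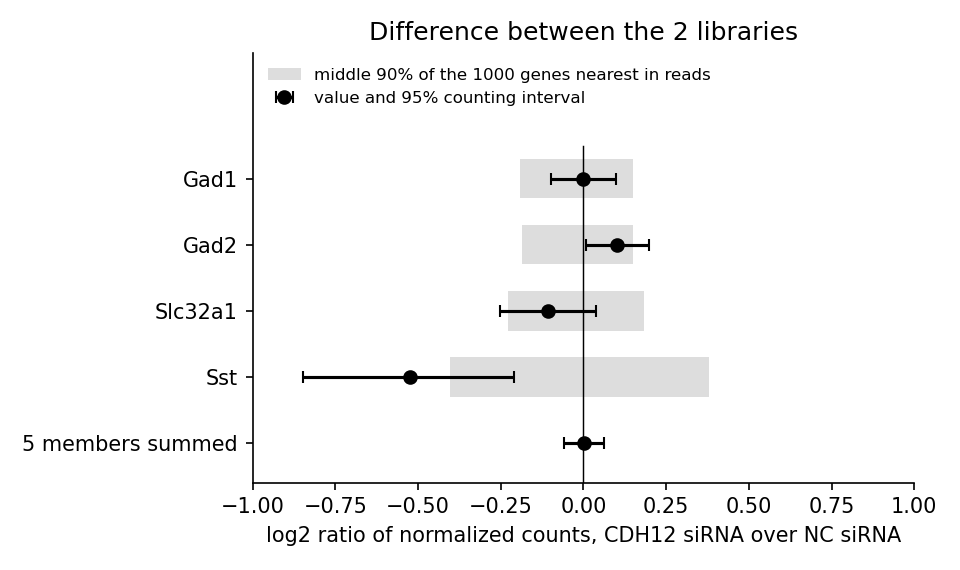
Log2 ratio of normalized counts, CDH12 siRNA over NC siRNA, for the 4 members with at least 20 reads and for the 5 members summed (points, with 95% counting intervals as bars). Grey bars span the middle 90% of the log2 ratios of the 1000 genes nearest in reads. The value of Sst (-0.53) lies left of its grey bar, which starts at -0.40, and the other members lie within theirs.

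Each member was next placed among the 1000 genes nearest to it in reads, a description of how far single genes of like depth differed between these libraries. For Sst these genes had between 282 and 441 reads in the 2 libraries together, and the middle 90% of their log2 ratios ran from -0.40 to 0.38. Of the 1000 genes, 32 differed by more than Sst in either direction and 18 had a lower ratio. The value of Sst thus lay at the edge of the spread of genes with as many reads, with others beyond it. Around Gad2, whose interval also missed an equal level, 266 of 1000 genes differed by more, and the middle 90% ran from -0.19 to 0.15. Around Slc32a1 the number was 363 and around Gad1 it was 996. The difference of Gad1 between the libraries was among the smallest at its depth, and those of Gad2 and Slc32a1 were common at theirs.

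**Figure D3:**
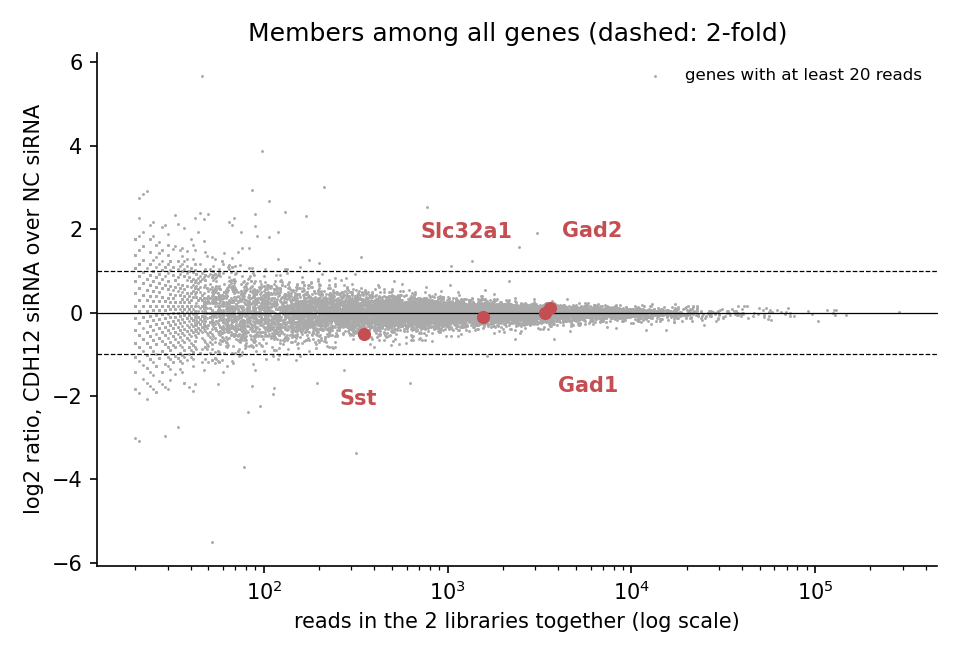
Log2 ratio of normalized counts, CDH12 siRNA over NC siRNA, against reads in the 2 libraries together (log scale) for the 13317 genes with at least 20 reads (grey) and the 4 members among them (red). Dashed lines mark a 2-fold difference. All 4 members lie between the dashed lines, with Sst near the lower edge of the genes with as many reads.

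Ratios between members within a library were compared as well, since a size factor cancels from them. All 6 pairs of the 4 members with at least 20 reads were taken, with exact conditional intervals of the 2 by 2 read counts. There were 8.23 reads of Gad1 for each read of Sst with the NC siRNA against 11.8 with the CDH12 siRNA, a ratio of 1.44 between the libraries (1.14 to 1.82). For Gad2 over Sst the values were 8.42 and 13.0, a ratio of 1.55 (1.23 to 1.95), and for Slc32a1 over Sst they were 3.94 and 5.26, a ratio of 1.34 (1.05 to 1.71). Sst reads were therefore fewer relative to each of the other 3 genes in the CDH12 siRNA library, whatever the scaling. These 3 pairs share the reads of Sst and are not separate evidence. Among the other pairs, the balance of the 2 decarboxylases differed by a ratio of 0.931 (0.846 to 1.02), and Gad1 over Slc32a1 differed by 1.08 (0.953 to 1.22), both with intervals that include an equal ratio. Gad2 over Slc32a1 went from 2.14 to 2.47, a ratio of 1.16 (1.02 to 1.31). These intervals cover counting error only, and the share of other gene pairs outside theirs was not computed. Single genes often exceeded counting error between these libraries (12.4% below and 10.2% above an equal level among genes with at least 20 reads).

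**Figure D4:**
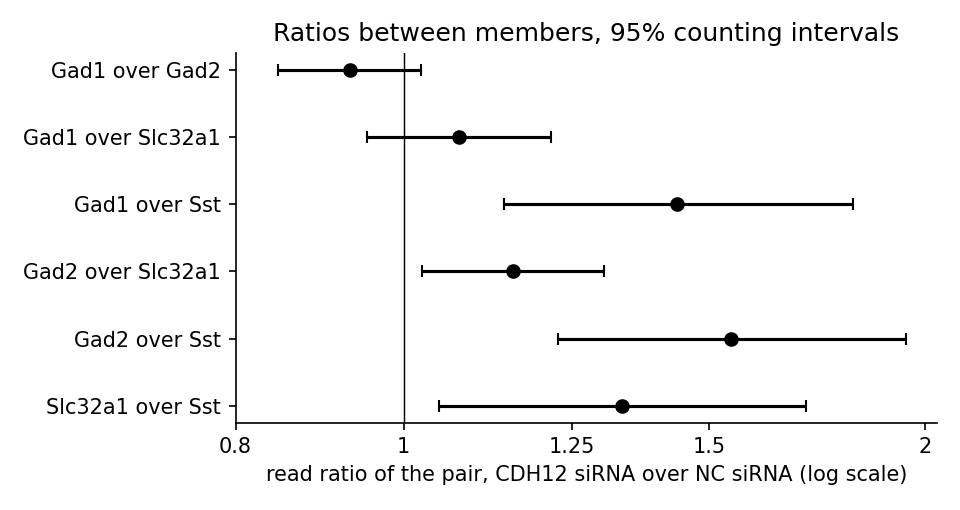
Read ratio of each pair of members in the CDH12 siRNA library over the same ratio in the NC siRNA library (log scale), with 95% counting intervals. The line marks an equal ratio. The 3 pairs with Sst as the second gene lie to its right, between 1.34 and 1.55, and Gad1 over Gad2 lies to its left at 0.931.

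By share of the members' reads, Gad1 made up 38.1% of them in both libraries. Gad2 made up 39.0% with the NC siRNA (37.6% to 40.4%) and 41.8% with the CDH12 siRNA (40.3% to 43.3%), and Slc32a1 made up 18.2% (17.1% to 19.4%) and 16.9% (15.8% to 18.1%). Sst had the largest relative difference in share, from 4.63% (4.05% to 5.27%) to 3.21% (2.70% to 3.79%). With 1 library for each siRNA, treatment, culture and library preparation cannot be told apart.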

How the data were processed

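Total RNA of E18 rat cortical neurons was sequenced after 36 h of NC siRNA or CDH12 siRNA, with 1 library per treatment. Per the labels, reads were trimmed with cutadapt 1.15, counted per gene with HTSeq (0.9.1 in the labels' list of tools; the methods of the study name another release) and scaled with DESeq 1.30.0. The aligner, genome build and annotation were not given in the sources used here. The deposited signal per gene is the read count divided by 1 size factor per library (1.06 and 0.944). Whole reads were recovered by division by the smallest non-zero value, with a tolerance of 0.001, for 100% of the values.

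The 5 genes, the lists and the tests were chosen with earlier results of these data known. All 5 genes were to be named. Ratios and exact intervals were computed with scipy 1.17.1, and the exact test was run with edgeR 4.0.16 in R 4.3.3 (TMM, trended dispersion with both libraries as 1 group, all genes with at least 1 read), since a quasi-likelihood test has no residual degrees of freedom here. Both were tested on simulated data. With 3 reads as the floor, the depth allowed detection from 0.194 (NC siRNA) and 0.219 (CDH12 siRNA) reads per 1000000 reads. Other scalings (total reads, TMM, DESeq2 1.42.0 size factors), pseudocounts of 1 and 5, read minimums and Wilson intervals were tried as alternatives. Planned lists of other interneuron, GABA and cell type genes, levels per length and protein sequences were not analyzed here, because no table paired the identifiers with symbols or gave transcript lengths or proteins.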

Additional observations from a re-analysis of the deposited data

How the results depend on the processing

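Of the 25 alternatives for the log2 ratios of the 4 members and of their sum with Npy, 24 stayed within the counting interval. The Wilson alternatives change only the interval, so their values could not leave it. Other scalings shift all log2 ratios by the same small amount, so this count says little about single genes. The log2 ratio of Sst lay between -0.53 and -0.51 over its 5 alternatives, and its interval stayed below 0 in the 3 that gave one (total reads, TMM and the Wilson interval). Without Gad2, the member with the most reads, the summed log2 ratio went from 0.002 to -0.066 (-0.14 to 0.01), an interval that still includes 0. The number of genes differing by more than 2-fold was 302 at a minimum of 20 reads, 2449 at 1 read and 33 at 100 reads. These minimums change only which genes are counted. The exact test called 206 genes at the study's thresholds (*P* below 0.05, fold change above 2) and 39 with Benjamini-Hochberg adjustment and no fold threshold. The percentages of genes of like depth that differed by more than a member stayed within 1.5 times with the 300 nearest genes. No paired analysis was possible because only 1 library per siRNA was analyzed, which also left no replicate to leave out. With 2 reads in each library, the identifier given for Npy has no ratio.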
